A study of Mus musculus with 9 samples.

Results

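The Rab small GTPases are the largest branch of the Ras superfamily. The members described here are the 49 genes whose symbol in the deposited count table consists of Rab, a number and, where present, a paralog letter, out of 12413 genes in all. Of these 49 members, 42 passed the filter on low counts and were tested, among 10413 genes tested. Sorted by the compartment where each is known to act, 18 members are endosomal (17 tested), 22 secretory (19 tested), 5 lysosome-related (3 tested) and 4 have other roles (3 tested). A further 10 mouse genes with such a symbol, among them Rab7, Rab9, Rab24 and Rab27b, were not analysed here.

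A Rab protein switches between a GTP-bound form on membranes and a GDP-bound form that is held in the cytosol, and each Rab marks a membrane compartment. Exchange factors load a Rab with GTP, GTPase-activating proteins turn it off, and effectors that bind only the GTP form tether, move or fuse the vesicle. In microglia and macrophages, Rab proteins direct the uptake and maturation of phagosomes, the traffic of Toll-like receptors and the release of cytokines.

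The BV-2 line, mouse microglia immortalized for culture, was the only material, so the libraries describe a single line and not microglia in tissue. The Control group received PBS, the Medium group LPS, a bacterial cell wall component that activates microglia through Toll-like receptor 4, and the BHB group LPS together with the ketone body β-hydroxybutyrate. Each group holds 3 mRNA libraries. The methods of the study speak of independent biological replicates in general, the labels do not say that the libraries came from separate cultures, and a p-value here reflects only how far these libraries spread.

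Total counts per library ranged from 23411672 to 32767278. Medium replicate 3 stood apart from its group: set against replicates 1 and 2, its counts gave a chi-square of 33 and 29.2 for each degree of freedom, where replicates 1 and 2 gave 4.32 between them. All 12 listed microglial and macrophage markers were present. Their summed level was 3260 to 3430 CPM (counts scaled to TMM-normalized library size) in Control. It was 2290 to 2970 CPM in Medium and 3100 to 3320 CPM in BHB. Of the 11 tested ones, 8 were called in Medium against Control, where 72.6% of all tested genes were. In BHB against Medium 10 were called, beside 66.9% of all tested genes. Single markers moved further than the sum: Csf1r held 5818 to 7254 counts in Control, 1004 to 1222 in Medium and 7119 to 7636 in BHB, and Trem2 6275 to 8042, 593 to 756 and 3434 to 4105, while Cd68 held 28055 to 44380 counts over all libraries. Of the 12 markers, P2ry12 and Tmem119, which define resting microglia in tissue, were low, at 0 to 28 and 7 to 68 counts in a library, and Aif1, which encodes the microglial protein Iba1, held 21 to 60. The part of these markers in the changes of Rab members was not tested. Of 4 listed markers each, 1 of astrocytes, 2 of neurons, 2 of fibroblasts, 1 of mast cells and 3 of neutrophils were analysed here and summed to at most 0.812 CPM for any of these types in a library, and 3 of oligodendrocytes summed to 5.37 to 8.18 CPM. The other listed markers, with all 4 of T cells, were not analysed here, so the sums do not cover these cell types in full. In bulk RNA, fewer cells that express a gene and less RNA per cell cannot be told apart. With library sizes alone as the scaling, the median gene had a log2 fold change of -0.27 in Medium against Control and of 0.13 in BHB against Medium, so values given here are relative to the typical gene under TMM.

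Promoter windows show what sequence surrounds the start of 3 of the 6 members that changed at least 2-fold with LPS. RefSeq windows on GRCm38.p6, each of 300 bases with 250 before the start and 50 from the start on, matched 40 of the 49 members. The 3 windows below are those of such members with a single annotated window, 1 for each of the endosomal, lysosome-related and secretory classes. Rab15 has 4 windows, and Rab7b and Rab44 are named only. Capitals mark the matches, on either strand, to 6 motifs: the NF-kB motif, the interferon-stimulated response element (GAAA, any 2 bases, GAAA), the AP-1 motif TGANTCA, the hypoxia response core ACGTG, the E-box CACGTG, which contains that core, and the PU.1 core GAGGAA. Sequences run 5′ to 3′ on the strand of the gene.
Rab20, chr8:11478591-11478890, minus strand: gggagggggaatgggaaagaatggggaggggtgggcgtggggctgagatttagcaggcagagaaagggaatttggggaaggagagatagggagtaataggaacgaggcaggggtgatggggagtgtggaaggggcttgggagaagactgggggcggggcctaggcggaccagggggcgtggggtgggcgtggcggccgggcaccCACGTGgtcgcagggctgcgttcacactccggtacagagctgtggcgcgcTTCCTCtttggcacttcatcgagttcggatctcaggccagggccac
Rab32, chr10:10558158-10558457, minus strand: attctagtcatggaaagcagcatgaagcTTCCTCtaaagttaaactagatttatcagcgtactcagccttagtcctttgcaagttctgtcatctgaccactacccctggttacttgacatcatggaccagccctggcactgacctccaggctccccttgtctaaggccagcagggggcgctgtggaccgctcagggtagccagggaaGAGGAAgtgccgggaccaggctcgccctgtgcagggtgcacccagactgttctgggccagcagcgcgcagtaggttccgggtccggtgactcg
Rab19, chr6:39381103-39381402, plus strand: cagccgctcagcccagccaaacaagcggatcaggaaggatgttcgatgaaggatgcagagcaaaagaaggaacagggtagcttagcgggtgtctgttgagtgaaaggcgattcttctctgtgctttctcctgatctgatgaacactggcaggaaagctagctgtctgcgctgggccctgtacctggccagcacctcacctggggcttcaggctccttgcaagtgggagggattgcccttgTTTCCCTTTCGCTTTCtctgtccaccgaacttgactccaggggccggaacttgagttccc
In the Rab20 window, CACGTG starts 46 bases before the RefSeq start and reads the same on both strands. The reverse complement of the PU.1 core lies just after that start. The Rab32 window holds the PU.1 core once in each orientation, and the Rab19 window ends its upstream part in overlapping matches to the interferon-stimulated response element. In the GENCODE M21 annotation the genes Rab20 and Rab19 begin further upstream. The E-box of Rab20 and the interferon element of Rab19 lie downstream of those starts. Of all 32851 windows, 7.15% held the E-box, 19.6% the hypoxia core, 28.3% the PU.1 core, 3.44% the interferon element, 8.46% the NF-kB motif and 7.81% the AP-1 motif. The 3 printed windows hold no match to the NF-kB or AP-1 motif. Of the 4 windows of Rab15, not printed, window 3 holds matches to both of these motifs, window 4 the PU.1 core, and the others none. A match is a stretch of letters and not a site of binding.

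The summed level of the 49 members was, as mean ± SD with n = 3 here and below, 2685.3 ± 46.8 CPM for Control, 2526.6 ± 76.1 for Medium and 2439.9 ± 14.3 for BHB. Under TMM the endosomal sum was lower in every Medium library than in every Control library and lower again in every BHB library, at 1510.4 ± 37.5, 1366.4 ± 45.9 and 1287.6 ± 8.3 CPM. Rab31 and Rab7b went from means of 340.4 and 222.6 CPM in Control to 178.7 and 47.4 in Medium. With LPS 8 of the 17 tested endosomal members were called higher and 4 lower, beside 36.3% and 36.3% of all tested genes. In BHB Rab31 and Rab7b were above Medium, at 240.4 and 63.0 CPM. Rab22a and Rab20 were below it, with means of 159.6 and 73.3 CPM in Medium and 83.05 and 18.2 in BHB. In BHB against Medium 5 endosomal members were called higher and 7 lower, beside 33.2% and 33.6% of all tested genes. The secretory sum stood at 1036.1 ± 13.3, 1063.7 ± 34.8 and 1014.5 ± 11.5 CPM, and its groups overlapped in all 3 comparisons. The lysosome-related sum was the smallest of the 3, with 65.8 ± 0.99 CPM for Control, 32.1 ± 4.59 for Medium and 82.4 ± 4.75 for BHB, with no overlap between any of the groups. Its place in BHB above Control rests largely on Rab44, with means of 15.3, 3.9 and 40.25 CPM in Control, Medium and BHB. In the same order Rab32 had 35.9, 17.0 and 22.7 CPM, lower in BHB than in Control, and Rab29 14.5, 11.1 and 19.4. Scaled by library sizes alone, the step from Medium to BHB turned round: the sum of all 49 was 2304.3 ± 51.5 CPM in Medium and 2433.5 ± 13.9 in BHB, the endosomal sum 1246 ± 24.9 and 1284.3 ± 5.95, and the secretory sum 970 ± 19.9 and 1011.8 ± 6.54, each higher in every BHB library. Under that scaling every group of the secretory sum lay apart from the others, with Control highest at 1138.5 ± 9.51 CPM, and the lysosome-related groups kept their order. These sums were formed after single members had been seen, and few abundant genes carry them.

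To ask which members respond to LPS, Medium was compared with Control. Of the 42 tested members, 15 rose and 12 fell (64.3%), where 72.6% of all tested genes were called, 36.3% higher and 36.3% lower (edgeR's quasi-likelihood test, Benjamini-Hochberg adjusted over all tested genes, threshold 0.05). Only 6 of the calls reached a 2-fold change, and 18.7% of all tested genes did so. Among endosomal members 8 rose and 4 fell of 17, and the 7 tested members of early endosomes and phagosomes were all called, 5 higher and 2 lower. Among secretory members 6 rose and 4 fell of 19. All 3 tested lysosome-related members fell, with a median log2 fold change of -1.08. The medians were 0.14 for endosomal members, 0.10 for secretory members, 0.10 for all 42 and -0.005 for all tested genes. Without Control replicate 1, 3 secretory members were higher. With library sizes alone, 5 of the 42 members were higher and 21 lower, where 2276 of the 10413 tested genes were higher and 5375 lower, and of the secretory members 0 were higher and 10 lower. Under that scaling Rab2a, Rab2b, Rab35, Rab4b, Rab6a, Rab6b, Rab8a and Rab12, not called under TMM, were called lower, as was Rab8b, called higher under TMM.

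To ask which members respond to β-hydroxybutyrate in LPS-treated cells, BHB was compared with Medium, and to see where they ended, BHB was compared with Control. In BHB against Medium 13 members rose and 17 fell (71.4%), where 66.9% of all tested genes were called, 33.2% higher and 33.6% lower, and 5 of the 42 were called with at least a 2-fold change, against 12.7% of all tested genes. The endosomal class had 5 higher and 7 lower members, the secretory class 5 and 8, and all 3 tested lysosome-related members rose, with a median of 0.80 beside -0.07 for endosomal and -0.08 for secretory members. The 5 secretory members higher became 3 with DESeq2, 2 without Medium replicate 2, BHB replicate 1 or BHB replicate 2, and 3 without Control replicate 1, Control replicate 3 or Medium replicate 3. With library sizes alone the balance in BHB against Medium turned round, to 16 members higher and 12 lower, beside 4296 higher and 2601 lower of all tested genes, with 8 and 5 endosomal and 5 and 5 secretory members. Rab11a, Rab14 and Rab21 then gained a call as higher. In BHB against Control 13 rose and 17 fell, beside 66.7% of all tested genes called, 33.4% higher and 33.3% lower. In that comparison 8 members were called with at least a 2-fold change, and 13.3% of all tested genes were. By class, 5 and 6 endosomal, 5 and 8 secretory and 2 and 1 lysosome-related members were higher and lower. Scaled by library sizes alone, 12 were higher and 23 lower, with calls gained as lower by Rab11b, Rab14, Rab1b, Rab21, Rab33b and Rab4b. The 3 comparisons share their groups, so their counts are not independent of each other.

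**Figure D1:**
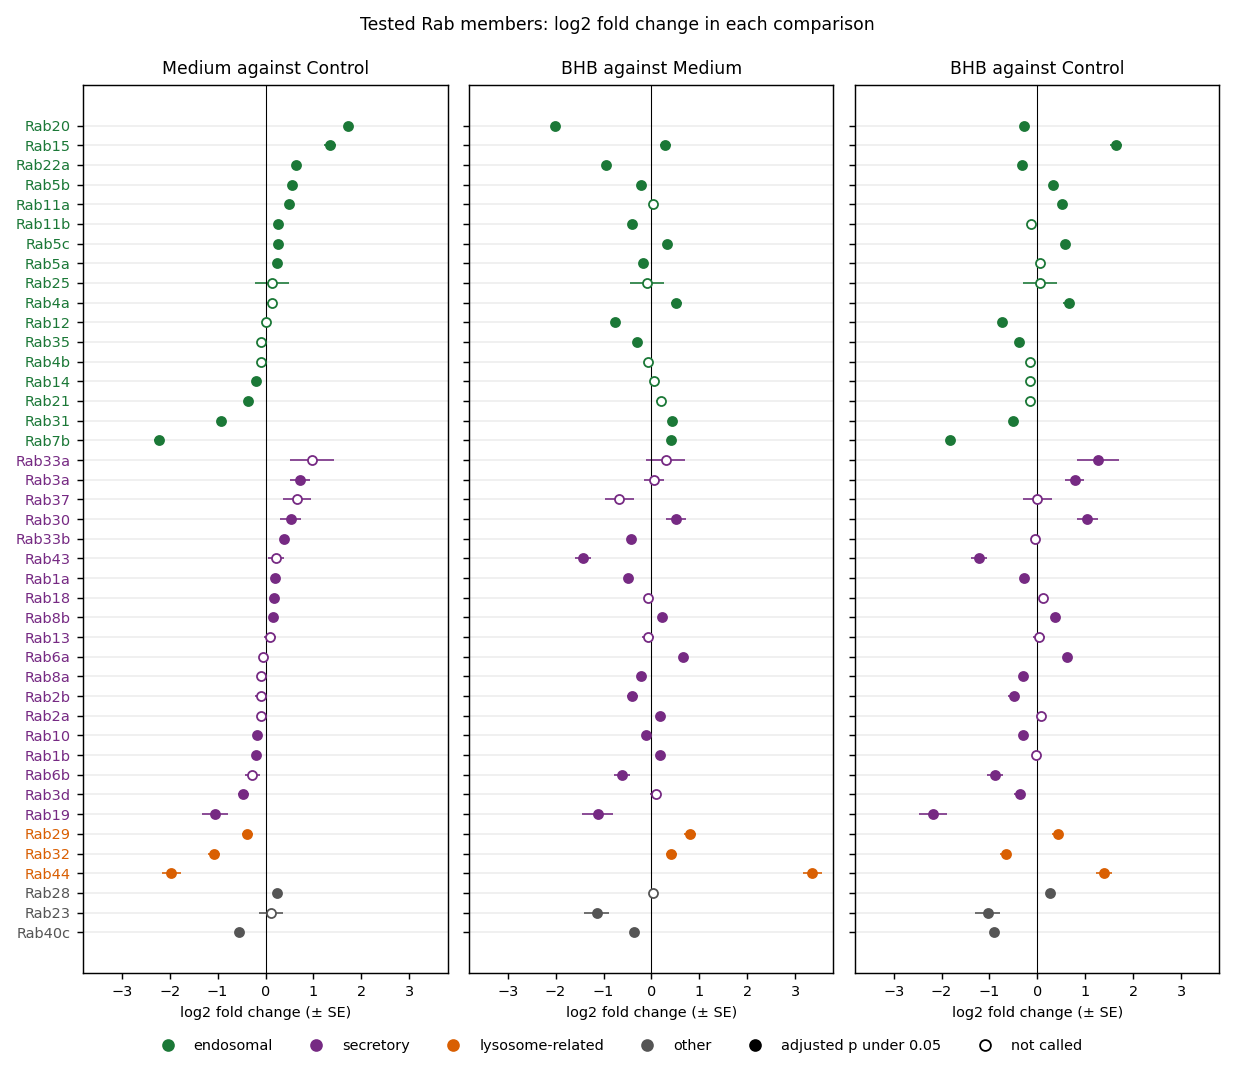
Log2 fold change ± SE of each of the 42 tested Rab members in the 3 comparisons, coloured by class, with filled points for an edgeR adjusted p under 0.05 and open points for members not called. Rab20 had the largest rise and Rab7b the largest fall with LPS, and Rab44 the largest rise in BHB against Medium, at 3.36.

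Per kilobase of exon, the most abundant members over all libraries were Rab31 (66.4 CPM per kb), Rab1a (61.2), Rab5c (51.1), Rab11a (43.2) and Rab10 (42.6). In Control, Rab31 led with 89.3 CPM per kb, and in Medium Rab1a led with 71.3. In BHB, the mean levels of Rab31 and Rab5c were 63.1 and 62.1 CPM per kb. Rab20 went from 15.9 CPM per kb in Control to 52.7 in Medium and 13.1 in BHB, and Rab7b from 48.1 to 10.3 and 13.6. The highest mean of a tested lysosome-related member was that of Rab32 in Control, 15.3 CPM per kb, and Rab29 reached 13.2 in BHB.

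**Figure D2:**
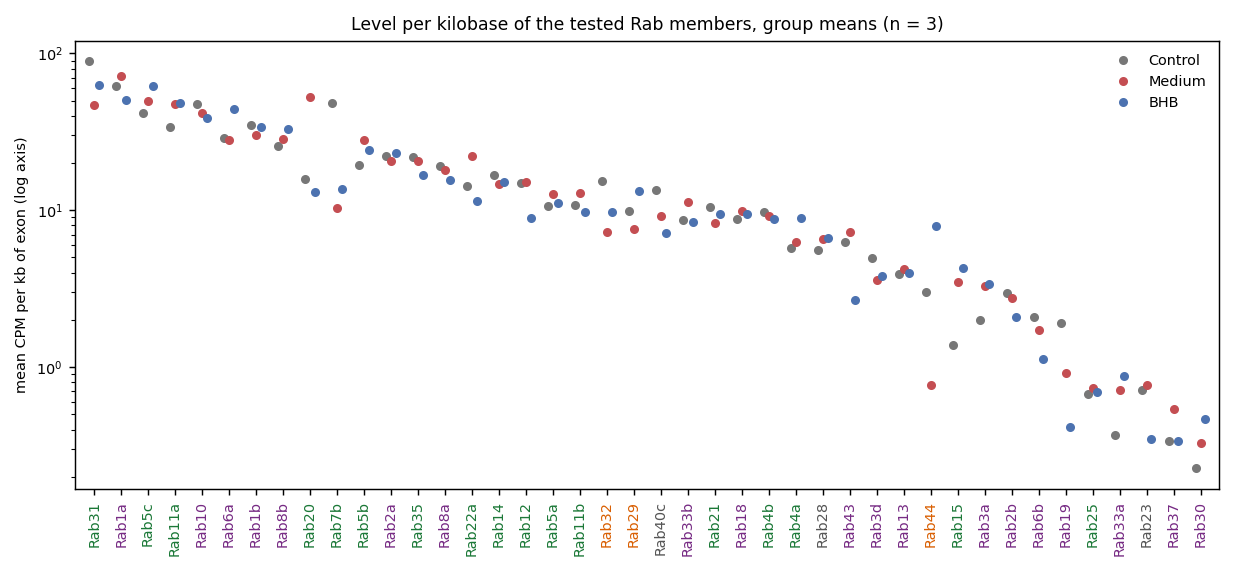
Mean level (CPM per kb of exon, log axis) of the 42 tested members in Control, Medium and BHB, ordered by the mean over all 9 libraries and with names coloured by class. Levels span from 66.4 CPM per kb for Rab31 to 0.341 for Rab30, and the points of Rab20 run from 13.1 in BHB to 52.7 in Medium.

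Among the early endosomal and phagosomal members, Rab20, which acts in the maturation of phagosomes in macrophages and is known as a hypoxia-induced gene, rose most with LPS. It held 21.3, 22.2 and 22.8 CPM in the Control libraries, 68.1, 72.2 and 79.7 CPM in the Medium libraries and 19.5, 18.6 and 16.5 CPM in the BHB libraries. Every Medium library lay above every other library, and every BHB library was below every Control library. The log2 fold change was 1.73 ± 0.081 (edgeR adjusted p = 1.4e-10) in Medium against Control, a 3.32-fold rise, and -2.01 ± 0.083 (edgeR adjusted p = 9.56e-11) in BHB against Medium, a 4.02-fold fall. Against Control, BHB stood at -0.28 ± 0.085 (edgeR adjusted p = 0.00952). Rab20 (ENSMUSG00000031504.6, chr8:11453518-11478710, minus strand, GRCm38) is the gene whose RefSeq promoter window with the E-box is printed above.

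Rab22a, which sorts cargo from early endosomes to recycling tubules, had the same order of groups and was picked out after its values had been seen. Its libraries held 103, 104 and 103 CPM in the Control libraries, 163, 159 and 157 CPM in the Medium libraries and 84.7, 82.3 and 82.1 CPM in the BHB libraries. The groups were tight and did not overlap. Its log2 fold changes were 0.63 ± 0.049 (edgeR adjusted p = 3.07e-08) with LPS, -0.94 ± 0.049 (edgeR adjusted p = 9.64e-10) in BHB against Medium and -0.31 ± 0.049 (edgeR adjusted p = 5.95e-05) in BHB against Control.

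Rab31, the close relative of Rab22a that carries cargo between the trans-Golgi network and endosomes, went the other way. It stood at 326, 347 and 349 CPM in the Control libraries, 174, 178 and 184 CPM in the Medium libraries and 226, 245 and 249.5 CPM in the BHB libraries. Control was highest in each library, Medium lowest, and BHB between them. Its log2 fold change was -0.93 ± 0.057 (edgeR adjusted p = 2.3e-09) with LPS, 0.43 ± 0.057 (edgeR adjusted p = 1.16e-05) in BHB against Medium and -0.50 ± 0.056 (edgeR adjusted p = 2.16e-06) in BHB against Control. Within a library, the ratio of Rab22a to Rab31 counts, which no scaling affects, was 0.315, 0.300 and 0.295 in the Control libraries, 0.936, 0.894 and 0.851 in the Medium libraries and 0.374, 0.336 and 0.329 in the BHB libraries.

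The Rab5 paralogs, which drive fusion of early endosomes, moved by less than 1.5-fold. Rab5a had 55.8, 57.2 and 55.4 CPM in the Control libraries, 70.1, 67.1 and 62.6 CPM in the Medium libraries and 59.9, 55.7 and 60.3 CPM in the BHB libraries. Rab5b had 84.3, 79.6 and 79.8 CPM in the Control libraries, 118, 122 and 115 CPM in the Medium libraries and 101, 99.6 and 104 CPM in the BHB libraries. Rab5c had 91.7, 88.0 and 94.1 CPM in the Control libraries, 116, 113 and 98.6 CPM in the Medium libraries and 136, 139 and 134 CPM in the BHB libraries. In Medium, each paralog was above Control in every library, and only Rab5c was higher in every BHB library than in every Medium library. With LPS the log2 fold changes were 0.25 ± 0.063 (edgeR adjusted p = 0.00276) for Rab5a, 0.54 ± 0.053 (edgeR adjusted p = 3.78e-07) for Rab5b and 0.26 ± 0.063 (edgeR adjusted p = 0.0021) for Rab5c, while library sizes alone gave -0.02 for Rab5a and for Rab5c. In BHB against Medium Rab5b fell by 0.22 (edgeR adjusted p = 0.00187) and Rab5c rose by 0.32 ± 0.063 (edgeR adjusted p = 0.000387). With library sizes alone Rab5b was at -0.09 and Rab5a at -0.05, neither called (adjusted p = 0.131 and 0.435). Rab5a was at -0.19 ± 0.063 (edgeR adjusted p = 0.0181), a call lost without Medium replicate 1 (adjusted p = 0.0797) or BHB replicate 2 (adjusted p = 0.0815). In BHB against Control Rab5b and Rab5c stood at 0.32 and 0.58 (edgeR adjusted p = 9.62e-05 and 1.6e-06) and Rab5a at 0.06 (adjusted p = 0.403). Rab5a shares 221 bases of exon with Pp2d1 on the opposite strand and has an annotated processed pseudogene, so its counts are less certain.

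Rab21, which takes part in integrin uptake, fell with LPS (-0.36 ± 0.093 (edgeR adjusted p = 0.00326)). It was at 0.20 in BHB against Medium (edgeR adjusted p = 0.0738), a value called without Medium replicate 3 (0.34, adjusted p = 0.000116). Against Control it stood at -0.16 in BHB (adjusted p = 0.148), called as well without that library (adjusted p = 0.0178). Rab17, an epithelial member, had 0 to 7 counts in a library and was not tested.

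**Figure D3:**
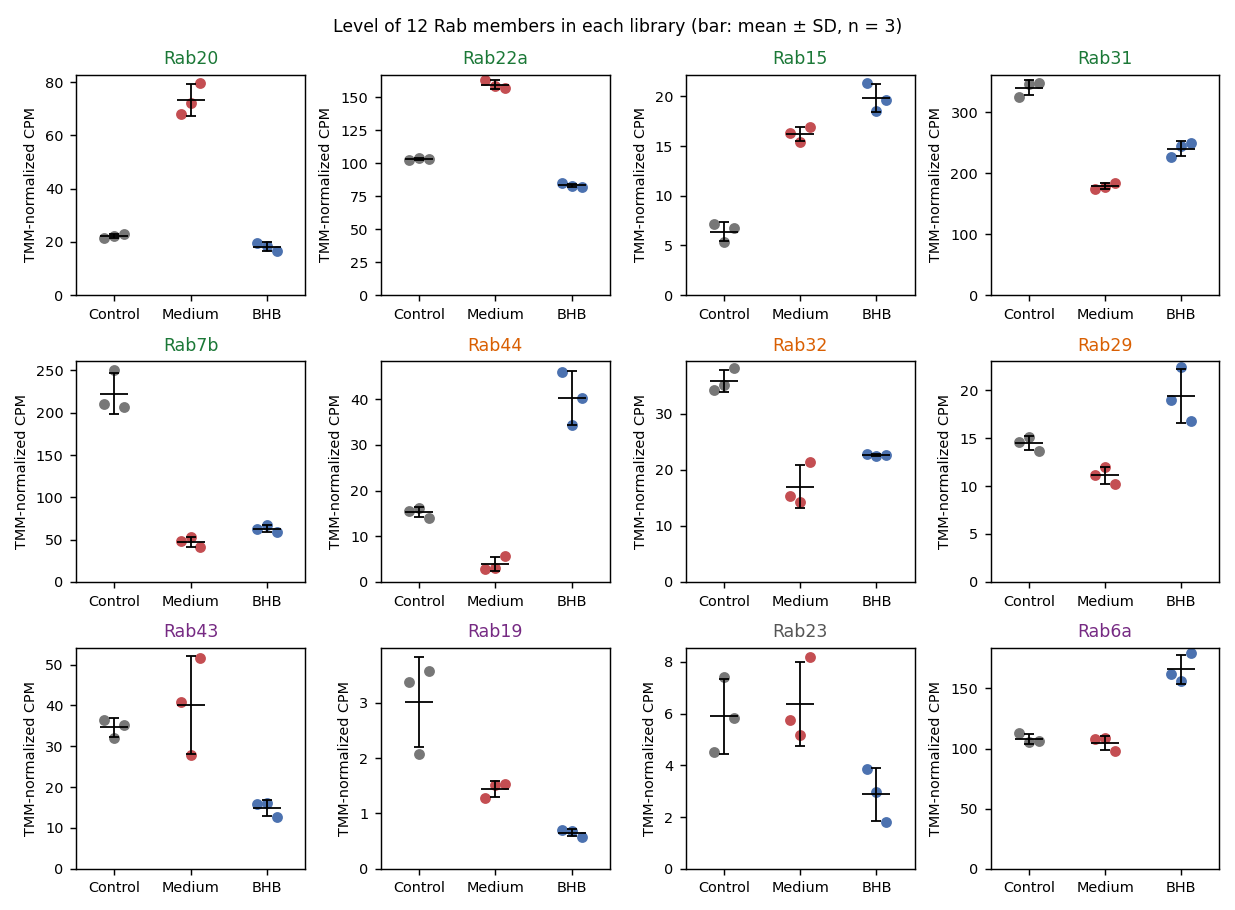
Level in each library (TMM-normalized CPM from 0, points) with the mean ± SD (n = 3) for 12 members in Control, Medium and BHB. Rab20 and Rab22a peak in Medium, Rab31, Rab44, Rab32 and Rab29 dip there, and the Medium libraries of Rab43 spread from 27.8 to 51.6 CPM.

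Among recycling members the largest fold change with LPS was that of Rab15, a regulator of endocytic recycling known mainly from neurons. It held 7.17, 5.29 and 6.71 CPM in the Control libraries, 16.3, 15.4 and 16.9 CPM in the Medium libraries and 21.4, 18.5 and 19.6 CPM in the BHB libraries. Each group lay wholly above the one before it in that order. The log2 fold change with LPS was 1.35 ± 0.12 (edgeR adjusted p = 1.54e-07) and that of BHB against Control 1.64 ± 0.12 (edgeR adjusted p = 2.87e-08), 3.11-fold. The step from Medium to BHB, 0.29 ± 0.11 (edgeR adjusted p = 0.0321), was not called without Medium replicate 1 (adjusted p = 0.0616), Medium replicate 2 (0.0946), BHB replicate 1 (0.127) or BHB replicate 3 (0.0609).

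Rab11a, the main GTPase of the slow recycling endosome, had 96.4, 106 and 102 CPM in the Control libraries, 152, 148 and 126 CPM in the Medium libraries and 145, 144 and 145 CPM in the BHB libraries. Both LPS-treated groups lay above Control in each library and overlapped each other. Its log2 fold changes were 0.48 ± 0.069 (edgeR adjusted p = 1.72e-05) with LPS, 0.02 in BHB against Medium (adjusted p = 0.768), where library sizes alone gave a call at 0.16 (adjusted p = 0.0213), and 0.51 ± 0.069 (edgeR adjusted p = 1.39e-05) in BHB against Control. Its paralog Rab11b was called higher with LPS (0.27 ± 0.071 (edgeR adjusted p = 0.00317)), but not with library sizes alone (0.001, adjusted p = 0.993), and fell in BHB against Medium (-0.40 ± 0.071 (edgeR adjusted p = 0.000163)). Against Control, Rab11b was at -0.13 in BHB (adjusted p = 0.112, 0.049 without Medium replicate 3), and a processed pseudogene of it is annotated.

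Of the members for fast recycling, Rab4a was at 0.13 with LPS (edgeR adjusted p = 0.314) and rose in BHB against Medium (0.52 ± 0.11 (edgeR adjusted p = 0.000799)), while Rab4b was at -0.09 and -0.07 (adjusted p = 0.403 and 0.531). Rab12, which directs recycling receptors to degradation, was at 0.02 with LPS (adjusted p = 0.842, and -0.25 with library sizes alone) and fell in BHB against Medium (-0.77 ± 0.077 (edgeR adjusted p = 7.72e-07)) and against Control (-0.75 ± 0.077 (edgeR adjusted p = 9.32e-07)). Rab35, a GTPase of rapid recycling at the plasma membrane, was at -0.08 with LPS (adjusted p = 0.214) and fell in BHB against Medium (-0.31 ± 0.059 (edgeR adjusted p = 0.000342)). Rab14, between Golgi and endosomes, fell slightly with LPS (-0.20 ± 0.066 (edgeR adjusted p = 0.0146)), a call lost without Control replicate 2 (adjusted p = 0.0655), and was not called in BHB against Medium (0.05, adjusted p = 0.524), though it was with library sizes alone (0.18, adjusted p = 0.00587). In BHB against Control it had an adjusted p of 0.0601, 0.00369 without Medium replicate 3 and 0.000202 with library sizes alone. Rab25, known from epithelia, held 0.797 to 1.66 CPM and was called in none of the 3 comparisons, with unadjusted p also above 0.05.

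Rab7b was the late endosomal member analysed here, a GTPase that in mouse macrophages promotes the lysosomal breakdown of Toll-like receptor 4. Its libraries held 211, 250.3 and 207 CPM in the Control libraries, 47.9, 53.2 and 41.2 CPM in the Medium libraries and 62.7, 67.2 and 59.1 CPM in the BHB libraries. All Control libraries were far above the other 6, and all BHB libraries above all Medium libraries. LPS lowered Rab7b 4.70-fold (log2 fold change -2.23 ± 0.095 (edgeR adjusted p = 5.02e-11)), the largest fall with LPS among the 42 members. BHB against Medium was at 0.41 ± 0.094 (edgeR adjusted p = 0.00144), and BHB remained 3.53-fold below Control (-1.82 ± 0.093 (edgeR adjusted p = 6.85e-10)). Rab7b lies at ENSMUSG00000052688.12, chr1:131688695-131715439, plus strand on GRCm38.

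The lysosome-related members form and move organelles such as melanosomes, lytic granules and secretory lysosomes. The 3 tested ones all fell with LPS, where 36.3% of all tested genes were called lower. All 3 rose in BHB against Medium, where 33.2% of all tested genes were called higher. This pattern of a fall and then a rise was not particular to the class: Rab31 and Rab7b (endosomal) and Rab1b (secretory) were also called lower and then higher. Both steps use the same Medium libraries, and the share of all tested genes with this pattern is not given here. Rab44, a large Rab with added calcium-binding and coiled-coil parts that in mice restrains osteoclast formation and acts in mast cell granule release, held 15.6, 16.2 and 14.0 CPM in the Control libraries, 2.87, 3.15 and 5.73 CPM in the Medium libraries and 46.0, 34.4 and 40.3 CPM in the BHB libraries. The BHB libraries were all above Control and the Medium libraries all below it. Its fall with LPS was 3.90-fold (log2 fold change -1.96 ± 0.20 (edgeR adjusted p = 4.72e-07)), and its rise in BHB against Medium, 3.36 ± 0.19 (edgeR adjusted p = 2.32e-09), was the largest of the family. BHB stood 2.63-fold above Control (1.40 ± 0.17 (edgeR adjusted p = 3.83e-06)). Without Medium replicate 3, whose level was the highest of its group, the log2 fold changes were -2.34 with LPS and 3.74 in BHB against Medium. Kit, the mast cell marker analysed here, held 0 to 3 counts in a library.

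Rab32, which builds lysosome-related organelles and in mouse macrophages delivers antimicrobial factors to bacteria-containing vacuoles, had 34.3, 35.2 and 38.1 CPM in the Control libraries, 15.3, 14.3 and 21.4 CPM in the Medium libraries and 22.8, 22.6 and 22.6 CPM in the BHB libraries. Control lay above both treated groups in each library, and the BHB libraries, nearly equal among themselves, lay just above Medium replicate 3. Its log2 fold change was -1.08 ± 0.12 (edgeR adjusted p = 1.52e-06) with LPS, 0.42 ± 0.12 (edgeR adjusted p = 0.00775) in BHB against Medium and -0.66 ± 0.12 (edgeR adjusted p = 0.000179) in BHB against Control. Rab29, which recruits the kinase LRRK2 to the Golgi and to stressed lysosomes, had 14.6, 15.1 and 13.7 CPM in the Control libraries, 11.2, 12.01 and 10.2 CPM in the Medium libraries and 19.0, 22.4 and 16.8 CPM in the BHB libraries. No groups overlapped, with Medium lowest and BHB highest. Its log2 fold changes were -0.38 ± 0.12 (edgeR adjusted p = 0.00968), 0.80 ± 0.12 (edgeR adjusted p = 2.71e-05) and 0.43 ± 0.11 (edgeR adjusted p = 0.0042) in the same order of comparisons.

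The 2 other lysosome-related members were near the limit of detection and were not tested. Rab27a, which docks secretory lysosomes and exosome-bearing endosomes, had counts of 4, 2 and 2 in the Control libraries, 4, 2 and 3 in the Medium libraries and 0, 0 and 5 in the BHB libraries. Rab38, the melanosome relative of Rab32, had 5 counts in Control replicate 3 and was listed at 0 in the other 8 libraries. A count of 0 allows up to 3 counts in a library by counting error, and the groups could not be told apart for either gene.

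In the secretory class, Rab1a, which carries vesicles from the endoplasmic reticulum to the Golgi, was the most abundant per kilobase. It held 234, 237 and 232 CPM in the Control libraries, 277, 292 and 244 CPM in the Medium libraries and 188, 189 and 199 CPM in the BHB libraries. Medium was highest in each library and BHB lowest. The log2 fold change was 0.21 ± 0.063 (edgeR adjusted p = 0.00829) with LPS, -0.06 with library sizes alone and 0.15 without Medium replicate 2 (adjusted p = 0.0513), and -0.50 ± 0.063 (edgeR adjusted p = 8.05e-06) in BHB against Medium. In BHB against Control it was -0.29 ± 0.063 (edgeR adjusted p = 0.00103). Its paralog Rab1b fell with LPS (-0.21 ± 0.067 (edgeR adjusted p = 0.0129)), a call lost without Control replicate 1 (adjusted p = 0.0523). Rab1b stood at 0.17 ± 0.067 (edgeR adjusted p = 0.0339) in BHB against Medium with overlapping groups, a call lost without Medium replicate 2 or 3 or BHB replicate 1 or 2 (adjusted p between 0.0634 and 0.154).

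Rab43, a Golgi GTPase that in mouse dendritic cells takes part in cross-presentation, held 36.4, 32.1 and 35.3 CPM in the Control libraries, 41.0, 27.8 and 51.6 CPM in the Medium libraries and 15.8, 16.2 and 12.8 CPM in the BHB libraries. The BHB libraries lay below all others, and the Medium libraries spread around the Control range. BHB against Medium was at -1.43 ± 0.17 (edgeR adjusted p = 3.91e-06), 2.69-fold lower, and BHB against Control at -1.21 ± 0.17 (edgeR adjusted p = 1.92e-05). With LPS the value was 0.22 (edgeR adjusted p = 0.24), and 0.42 without Medium replicate 2, the lowest Medium library (adjusted p = 0.00469). Without Medium replicate 3, the highest, it was -0.002 (adjusted p = 0.99).

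Rab19, a little-studied Golgi member whose RefSeq promoter window holds the matches to the interferon element printed above, was low. It held 3.37, 2.07 and 3.57 CPM in the Control libraries, 1.28, 1.51 and 1.53 CPM in the Medium libraries and 0.702, 0.682 and 0.580 CPM in the BHB libraries. Each group lay below the one before it. The log2 fold change was -1.06 ± 0.27 (edgeR adjusted p = 0.00285) with LPS, -1.13 ± 0.32 (edgeR adjusted p = 0.00588) in BHB against Medium and -2.18 ± 0.30 (edgeR adjusted p = 1.48e-05) in BHB against Control, 4.54-fold and the largest difference of a member between those groups. These values rest on 16 to 99 counts in a library.

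Rab30, which maintains Golgi structure, had 2.21, 2.01 and 2.35 CPM in the Control libraries, 2.80, 2.52 and 4.12 CPM in the Medium libraries and 4.46, 4.84 and 4.24 CPM in the BHB libraries. The groups did not overlap, with Control lowest and BHB highest. BHB against Control was 1.05 ± 0.21 (edgeR adjusted p = 0.000561). The steps of 0.53 ± 0.22 (edgeR adjusted p = 0.0424) with LPS and 0.52 ± 0.21 (edgeR adjusted p = 0.0383) in BHB against Medium were each called in only 2 of 9 fits that left out a library. Those were the fits without Medium replicate 1 or 2 for the first step and without Control replicate 2 or Medium replicate 3 for the second, and without Medium replicate 3 the first was 0.29 (adjusted p = 0.24). Neither step was called with DESeq2 (adjusted p = 0.0576 and 0.0508), and with library sizes alone the first was 0.27 (adjusted p = 0.32).

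Rab33a and Rab33b bind the autophagy protein ATG16L1. Rab33a held 0.582, 0.159 and 0.541 CPM in the Control libraries, 0.727, 0.672 and 1.07 CPM in the Medium libraries and 1.05, 1.10 and 0.870 CPM in the BHB libraries, from 5 to 34 counts. The Control libraries were the lowest, and the others overlapped. BHB against Control was at 1.27 ± 0.44 (edgeR adjusted p = 0.0205), not called without Control replicate 2 (0.85, adjusted p = 0.0984), BHB replicate 1 (adjusted p = 0.0542) or BHB replicate 2 (adjusted p = 0.0671). Rab33b was called higher with LPS (0.39 ± 0.071 (edgeR adjusted p = 0.000193)), but not with library sizes alone (0.12, adjusted p = 0.159), and fell in BHB against Medium (-0.44 ± 0.071 (edgeR adjusted p = 7.93e-05)).

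Rab6a, which drives retrograde transport at the Golgi and was picked out after its values had been seen, held 113, 106 and 106 CPM in the Control libraries, 108, 109 and 98.1 CPM in the Medium libraries and 162, 156 and 179 CPM in the BHB libraries. Control and Medium overlapped, and BHB was above both in each library. The log2 fold changes were -0.05 with LPS (edgeR adjusted p = 0.527), 0.66 ± 0.065 (edgeR adjusted p = 5.48e-07) in BHB against Medium and 0.62 ± 0.064 (edgeR adjusted p = 1.09e-06) in BHB against Control. Rab6a shares 708 bases of exon, 19% of its own, with Mrpl48 on the opposite strand, and the methods name a strand-specific alignment, but whether the counting used strand is not given. Mrpl48, a mitochondrial ribosomal protein gene, fell in BHB against Medium, with a log2 fold change of -0.63 (edgeR adjusted p = 1.01e-05). The paralog Rab6b, known mainly from neurons, fell in the same comparison (-0.61 ± 0.17 (edgeR adjusted p = 0.00444)).

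Rab2a, of transport between the endoplasmic reticulum and the Golgi, stood at 0.18 ± 0.075 (edgeR adjusted p = 0.0481) in BHB against Medium, a call kept in only 2 of 9 fits that left out a library, those without Medium replicate 1 or BHB replicate 3. Over the 9 fits its adjusted p ranged from 0.0164 to 0.169. Rab2b, which shares 195 bases of exon with Tox4 on the opposite strand, was called lower in BHB against Medium (-0.40 ± 0.12 (edgeR adjusted p = 0.00815)), but not with library sizes alone (-0.27, adjusted p = 0.0646). Rab18, of lipid droplets and the endoplasmic reticulum, was at 0.18 ± 0.062 (edgeR adjusted p = 0.0172) with LPS, -0.09 with library sizes alone, and lost its call without Control replicate 1 (adjusted p = 0.0826) or Medium replicate 2 (adjusted p = 0.0584).

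Among the members for exocytosis, Rab10, which in mouse macrophages brings Toll-like receptor 4 to the surface, was the most abundant per kilobase. It held 166, 169.6 and 164 CPM in the Control libraries, 147, 148 and 148 CPM in the Medium libraries and 135, 136 and 136 CPM in the BHB libraries. The libraries of each group were close together, with Control highest and BHB lowest. The log2 fold changes were -0.18 ± 0.047 (edgeR adjusted p = 0.00374) with LPS and -0.30 ± 0.047 (edgeR adjusted p = 6.87e-05) in BHB against Control. The value for BHB against Medium was -0.12 ± 0.047 (edgeR adjusted p = 0.0383), and 0.01 with library sizes alone. That call was kept in only 2 of 9 fits that left out a library, those without Control replicate 2 or Medium replicate 3, with adjusted p from 0.0244 to 0.0831.

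Rab8a and Rab8b, which deliver vesicles to the plasma membrane and the cilium, were called in opposite directions in BHB against Medium under TMM. Rab8a was at -0.21 ± 0.059 (edgeR adjusted p = 0.00522), a call lost with library sizes alone (-0.08, adjusted p = 0.21), and Rab8b rose (0.21 ± 0.055 (edgeR adjusted p = 0.00332), 0.34 with library sizes alone). With LPS, Rab8b was at 0.15 ± 0.055 (edgeR adjusted p = 0.0209), was called in the opposite direction with library sizes alone (-0.12, adjusted p = 0.0444), and lost its call without Control replicate 1 (adjusted p = 0.0628) or Medium replicate 2 (adjusted p = 0.106). Rab3d, of secretory granules, fell with LPS (-0.47 ± 0.11 (edgeR adjusted p = 0.00187)), and its fall in BHB against Control (-0.37 ± 0.11 (edgeR adjusted p = 0.00889)) was not called without Control replicate 2 (adjusted p = 0.0614). Rab3a, of synaptic vesicles, was called higher with LPS (0.72 ± 0.21 (edgeR adjusted p = 0.0062)), but not with library sizes alone (0.45, adjusted p = 0.0668), and was also above Control in BHB (0.78 ± 0.21 (edgeR adjusted p = 0.00424)), and it shares 29 bases of exon with Mpv17l2 on the opposite strand.

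Rab13, of tight junctions, was called in none of the 3 comparisons, with adjusted p of 0.471, 0.599 and 0.868. Rab37, of mast cell granules, had values of 0.67 with LPS and -0.67 in BHB against Medium (edgeR adjusted p = 0.0544 and 0.0572). Both were called without Medium replicate 3 (adjusted p = 0.0148 and 0.0158), the first also without BHB replicate 3 (adjusted p = 0.0452) and the second without BHB replicate 2 (adjusted p = 0.0408). Rab26, Rab3b and Rab3c were not tested. They had at most 5, 10 and 6 counts in a library, and Rab3c was listed at 0 in all 6 LPS-treated libraries and held 5, 6 and 0 counts in Control.

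Of the members with other roles, Rab40c, a substrate adaptor of ubiquitin ligases, held 39.98, 41.0 and 43.9 CPM in the Control libraries, 30.4, 29.2 and 25.9 CPM in the Medium libraries and 20.5, 24.6 and 21.5 CPM in the BHB libraries. It fell at each step without overlap. The log2 fold changes were -0.55 ± 0.087 (edgeR adjusted p = 5.35e-05), -0.36 ± 0.090 (edgeR adjusted p = 0.00269) and -0.91 ± 0.088 (edgeR adjusted p = 5.43e-07). Rab23, an inhibitor of Hedgehog signalling, held 4.498, 7.40 and 5.81 CPM in the Control libraries, 5.75, 5.16 and 8.21 CPM in the Medium libraries and 3.86, 2.96 and 1.81 CPM in the BHB libraries. The BHB libraries were the lowest, and Control and Medium overlapped. BHB against Medium was at -1.15 ± 0.27 (edgeR adjusted p = 0.0016) and BHB against Control at -1.04 ± 0.27 (edgeR adjusted p = 0.00319), and the value with LPS was 0.11 (adjusted p = 0.716).

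Rab28, of cilia and photoreceptors, held 24.7, 24.3 and 26.5 CPM in the Control libraries, 31.1, 27.5 and 29.8 CPM in the Medium libraries and 29.8, 31.4 and 29.0 CPM in the BHB libraries. Both treated groups lay above Control and overlapped each other. The log2 fold change with LPS was 0.23 ± 0.078 (edgeR adjusted p = 0.0158), -0.04 with library sizes alone, and was not called without Control replicate 2 (adjusted p = 0.0542) or Medium replicate 1 (adjusted p = 0.0674). BHB against Control was at 0.26 ± 0.078 (edgeR adjusted p = 0.00923), a call lost with library sizes alone (0.12, adjusted p = 0.24). Rab34, of cilia and lysosome position, had 0 to 17 counts in a library and was not tested.

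Closely related members changed by unequal amounts, and the ratio of their counts within a library gives this relative difference free of any scaling between libraries, without saying which of the 2 moved. The pairs were chosen after the values had been seen, 11 in all. Rab5c exceeded Rab5b in counts by 1.09 to 1.18 times in Control, was 0.858 to 0.981 times in Medium and 1.29 to 1.40 times in BHB. Rab4a counts were 0.448 to 0.623 times those of Rab4b in Control, 0.560 to 0.651 in Medium and 0.848 to 0.982 in BHB. Rab6a stood at 9.77 to 10.7 times Rab6b in Control, 10.1 to 13.5 times in Medium and 25.4 to 36.4 times in BHB. The ratio of Rab8b to Rab8a was 1.34 to 1.40 in Control, 1.55 to 1.69 in Medium and 1.99 to 2.32 in BHB. In contrast, Rab1a to Rab1b was highest in Medium, at 3.8 to 4.21, beside 2.89 to 3.01 for Control and 2.30 to 2.79 for BHB. In BHB against Medium the libraries did not overlap for 10 of the 11 ratios, the exception being Rab5b to Rab5a. In that comparison 66.9% of all tested genes were called, a share of single genes and not of pairs. How many other gene pairs lie apart was not counted. The pairs were chosen with these values known, and the Rab5 paralogs and Rab22a recur among them, so the count of 10 describes and does not test. The 2-sided exact permutation p of each of those 10 ratios was 0.1. That is the smallest that 3 libraries against 3 allow, so none could pass 0.05. How the authors' counting split reads between alike paralogs is not given. These are ratios of counts, not of levels per length.

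**Figure D4:**
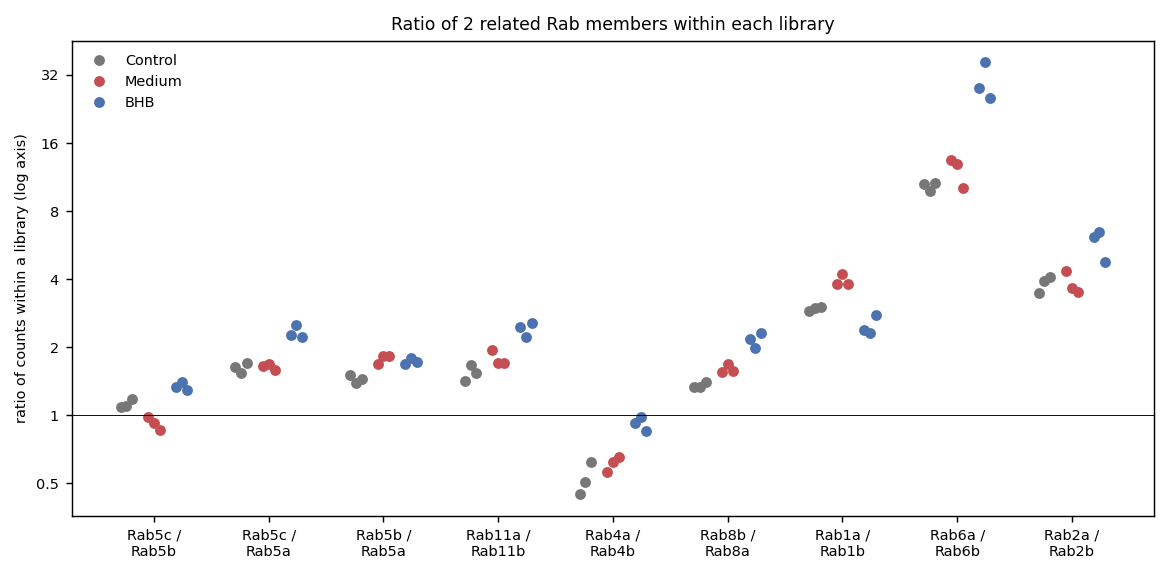
Ratio of the counts of 2 related members within each library (log axis), by group, for 9 pairs. The BHB points lie apart from the Medium points in every pair shown except Rab5b to Rab5a, and Rab6a to Rab6b reaches 25.4 to 36.4 in BHB.

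Around the Rab proteins stands a list of 140 symbols of regulators and effectors, of which 128 were analysed here and 119 tested. With LPS 41 rose and 43 fell (70.6%), with BHB against Medium 29 rose and 44 fell (61.3%), and with BHB against Control 39 rose and 45 fell (70.6%), with medians of 0.01, -0.05 and -0.06. Of all tested genes, 72.6%, 66.9% and 66.7% were called in the same comparisons. With library sizes alone the split was 23 higher and 66 lower with LPS, and in BHB against Medium it turned round to 41 higher and 24 lower. By role, 15 of 35 exchange factors rose and 13 fell with LPS, while 7 rose and 17 fell in BHB against Medium. Counted among them are Rab3gap1 and Rab3gap2, whose symbols name GTPase-activating proteins of Rab3. Rab3gap2 was called lower with LPS and higher in BHB against Medium, and Rab3gap1 was called in neither. Of 32 GTPase-activating proteins, 7 rose and 12 fell with LPS and 6 rose and 9 fell in BHB against Medium. Of 44 effectors, 14 rose and 17 fell, and then 13 rose and 15 fell. Of the 8 factors for membrane delivery and prenylation, 5 rose and 1 fell with LPS.

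The largest rises of the list with LPS were in Rab11fip1, a Rab11 effector, Rabgef1, the exchange factor Rabex-5 of Rab5, and Ric1, part of the exchange factor of Rab6. Rab11fip1 held 19.3, 16.4 and 18.5 CPM in the Control libraries, 66.4, 68.1 and 97.5 CPM in the Medium libraries and 58.4, 57.5 and 59.9 CPM in the BHB libraries, Rabgef1 26.6, 27.2 and 25.8 CPM in the Control libraries, 79.0, 83.8 and 86.1 CPM in the Medium libraries and 53.3, 50.9 and 56.3 CPM in the BHB libraries. Both were above Control in all treated libraries. With LPS their log2 fold changes were 2.101 ± 0.13 (edgeR adjusted p = 1.93e-09) and 1.65 ± 0.066 (edgeR adjusted p = 2.8e-11), and that of Ric1 1.17 ± 0.082 (edgeR adjusted p = 1e-08). The largest falls were in Mlph, melanophilin, which links Rab27a to myosin Va (-3.10 ± 0.64 (edgeR adjusted p = 0.000517), from 0 to 1.69 CPM over all libraries), in Rin2, an exchange factor of Rab5 (-2.23 ± 0.087 (edgeR adjusted p = 1.97e-11)), and in Rufy1, an effector of Rab4 and Rab14 (-1.62 ± 0.073 (edgeR adjusted p = 8.91e-11)).

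In BHB against Medium, Rilpl1, an effector of Rab8 and Rab10, rose by 2.28 ± 0.33 (edgeR adjusted p = 2.93e-05) from low counts, Rph3al, an effector of Rab3 and Rab27, by 2.08 ± 0.59 (edgeR adjusted p = 0.00647), also from low counts, and Appl2, an early endosomal effector of Rab5, by 1.23 ± 0.075 (edgeR adjusted p = 4.69e-09). Appl2 held 158, 170.4 and 162 CPM in the Control libraries, 107, 107 and 100.3 CPM in the Medium libraries and 231, 225 and 278 CPM in the BHB libraries. The BHB libraries were all above the rest. Rab3il1, an exchange factor known as GRAB, was at -1.47 ± 0.14 (edgeR adjusted p = 5.4e-07), Ric1 at -1.04 ± 0.082 (edgeR adjusted p = 5.88e-08) and Plekhm1, which joins Rab7 to the fusion machinery of lysosomes, at -1.04 ± 0.073 (edgeR adjusted p = 2e-08). Plekhm1 held 217, 201 and 209 CPM in the Control libraries, 180.3, 187 and 151 CPM in the Medium libraries and 82.2, 86.9 and 83.7 CPM in the BHB libraries, with all BHB libraries below the other 6.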

How the data were processed

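The authors deposited whole-number counts per gene, neither normalized nor pooled, for 12413 genes in 9 BV-2 libraries, grouped here by the labels. Per the labels, FastQC 0.11.5, Trimmomatic, HISAT2 and StringTie were used on GRCm38, while the methods name Skewer and STAR with strand-specific alignment. No source used here names the tool that turned alignments into counts. Total counts ranged from 23411672 to 32767278, with a median of 27905139.

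Counts were filtered with filterByExpr, which left 10413 genes, scaled by TMM and fitted in R 4.3.3 with edgeR 4.0.16 (glmQLFit and glmQLFTest, 1 fit of all 9 libraries, Benjamini-Hochberg adjustment, threshold 0.05). The fit was tested on simulated data in which few genes changed, so that test does not cover the scaling between these groups. CPM values are TMM-normalized, ± gives the standard error of a log2 fold change (from its F statistic) or the SD of a level, and a count of 0 allows up to 3 counts, by counting error only. Levels per kb use exon lengths of GENCODE M21, in which all 49 members were found. Alternatives were DESeq2 1.42.0, limma-voom (limma 3.58.1), RLE factors, library sizes alone, a block for the replicate number, no filter on low counts, a minimum of 10 counts in each library, a fit of the 2 compared groups only, an unadjusted p under 0.05 with at least a 2-fold change, another class for Rab7b, and leaving out each library.

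Values in every library are given for members called with at least a 2-fold change, for the 2 most abundant per kb of each class and for Rab5a, Rab5b, Rab5c, Rab11a, Rab1a, Rab27a, Rab32, Rab38 and Rab20. Of the regulator list, the 3 called genes with the largest fold change in each direction are named for the LPS and the BHB step. The members, classes and lists were chosen with earlier results of these data known. Class sums, paralog ratios and the values of Rab22a and Rab6a in every library were added after values had been seen.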

Additional observations from a re-analysis of the deposited data

How the results depend on the processing

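Of 126 values for single members in the 3 comparisons, 81 stayed on the same side of the threshold under every alternative fit. The rule of an unadjusted p with at least a 2-fold change was applied to counts of calls and not to these single values. Of the 81 values, 63 were called and kept their direction, and 18 were not called, 16 of which changed sign under some alternative fit. Of the 19 called with at least a 2-fold change 18 kept their call, the exception being Rab33a in BHB against Control. The cause of the changes below was not tested. With library sizes alone, the LPS values of Rab12 (-0.251), Rab18 (-0.087), Rab1a (-0.063), Rab28 (-0.038), Rab5a (-0.024), Rab5c (-0.016) and Rab8b (-0.115) and the value of Rab10 in BHB against Medium (0.009) had the opposite sign. Under that scaling the calls with LPS were 5 higher and 21 lower over all members, 5 and 7 endosomal and 0 and 10 secretory ones, and 23 and 66 in the regulator list. In BHB against Medium the balance turned round, with 16 members higher and 12 lower, 8 and 5 endosomal, 5 and 5 secretory, and 41 and 24 listed regulators. In BHB against Control 5 endosomal members were higher and 10 lower. Calls were also lost under that scaling by Rab11b, Rab30, Rab33b and Rab3a with LPS, by Rab2b, Rab5a, Rab5b and Rab8a in BHB against Medium and by Rab28 in BHB against Control. The percent difference of the secretory sum with LPS (-14.8) and those of the endosomal (3.07), secretory (4.32) and whole Rab sum (5.61) in BHB against Medium changed sign, a recomputation added after seeing the data.

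An unadjusted p under 0.05 with at least a 2-fold change left 2 members higher and 4 lower with LPS, 1 and 4 in BHB against Medium and 4 and 4 in BHB against Control. The regulator list then had 4 and 6, 4 and 3, and 5 and 9. Endosomal members then had 2 and 1, 0 and 1, and 1 and 1, secretory members 0 and 1, 0 and 2, and 2 and 2. Of the lysosome-related members 1 was then higher in BHB against Medium, and 1 was higher and 0 lower in BHB against Control.

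Secretory members higher in BHB against Medium were 5, but 3 with DESeq2 and 3 in the 2 compared groups alone, and 2 to 4 when a library was left out. Secretory members higher with LPS were 3 to 6 when a library was left out, 3 without Control replicate 1. With Rab7b counted as lysosome-related, 2 of that class were lower in BHB against Control.

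Same-numbered libraries of different groups correlated from -0.071 to 0.063 in their deviations from the group means, and those with different numbers from -0.082 to 0.055. The labels do not say whether same-numbered libraries were made together, and these values cannot settle it. With the replicate block, 15 members were higher and 12 lower with LPS, 12 and 17 in BHB against Medium and 13 and 17 in BHB against Control. Rab37 then gained a call with LPS (adjusted p = 0.0331) and in BHB against Medium (0.0308), while Rab30 with LPS (0.06) and Rab10 (0.0601) and Rab2a (0.0548) in BHB against Medium lost theirs. The 3 libraries a group, the unknown counting step, overlapping genes and the few counts of 7 members limit these results.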
